A study of Homo sapiens with 8 samples.

Results

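The genes described here encode the chains of integrins and laminins in COLO829 melanoma cells, a human line that carries the BRAFV600E mutation. Members were taken by name: genes whose symbol is ITGA or ITGB with the code of an integrin chain, or LAMA, LAMB or LAMC with a digit. No measured value entered that rule beyond the choice of 1 probe set per gene. It gave 35 members, 25 integrin and 10 laminin genes, of 18404 genes on the arrays with a probe set that names 1 gene. Each member had 1 such probe set, so no choice among probe sets was needed. ITGA1 and LAMA3 were not analysed here as members.

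An integrin is a pair of an alpha and a beta chain in the cell membrane. Its outer part binds matrix proteins such as laminins, collagens, fibronectin or vitronectin, or other cells, and its short inner tail connects to talin, kindlin and the actin cytoskeleton. A laminin is a trimer of an alpha, a beta and a gamma chain and is a main building block of basement membranes, the sheets that melanocytes rest on in skin. In melanoma, ITGB3 has long been used as a marker of the change from growth within the epidermis to invasion of the dermis. MITF is the transcription factor that directs the melanocyte lineage, and PLX4032 (vemurafenib) inhibits mutant BRAF.

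Cell populations were infected with a pGIPZ vector that expresses a hairpin against MITF or a scrambled hairpin, kept under puromycin for 2 days, and then given 1 uM PLX4032 or the solvent DMSO for 24 hours. There were 4 groups of 2 arrays, A and B: MITF hairpin with PLX4032 (knockdown PLX4032), MITF hairpin with DMSO (knockdown DMSO), scrambled hairpin with PLX4032 (scrambled PLX4032) and scrambled hairpin with DMSO (scrambled DMSO). All 4 groups share the line, its BRAF mutation, the vector and the puromycin. The labels name 1 hairpin against MITF and are silent on whether A and B were grown apart. The spread behind each p-value is therefore that of A against B and may be technical only.

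Values are log2 intensities, 1 for each probe set and array, and a difference of 1 is a 2-fold change. MITF itself read 10.07 and 10.08 in knockdown PLX4032 cells, 9.57 and 9.47 in knockdown DMSO cells, 10.88 and 10.80 in scrambled PLX4032 cells, and 10.44 and 10.46 in scrambled DMSO cells. The knockdown arrays were below the scrambled arrays of the same treatment, with a log2 change of -0.93 in DMSO and -0.76 under PLX4032, so the knockdown was partial. MITF was also higher with PLX4032 than with DMSO, by 0.56 in knockdown cells and 0.39 in scrambled cells. Its log2 change with both perturbations against scrambled DMSO cells was therefore smaller, at -0.38. Arrays of 1 group correlated at 0.9973 to 0.9984 over all genes and arrays of different groups at 0.9628 to 0.9844. All 7 measured melanocyte genes (MLANA, PMEL, TYR, TYRP1, SOX10, PAX3 and MITF) were above the level that 95% of 340 olfactory receptor genes stayed under (5.095), a guide to what an unexpressed gene reads. Of the members, 28 of 35 were above that level on average, 20 integrin and 8 laminin genes. The 7 at or below it were ITGA8, ITGA2B, ITGAL, ITGAM, ITGB6, LAMA2 and LAMB4. RNA came from whole cell populations, so fewer cells that use a gene and less of its RNA per cell cannot be told apart.

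Knockdown of MITF went with higher levels of integrin and laminin RNA more often than with lower ones, with and without the inhibitor. ITGA10, a collagen-binding chain, had the largest rise in either treatment. ITGA2, another collagen-binding chain, rose under PLX4032, and the laminin chains LAMA4 and LAMB3 rose in both. LAMA1 and ITGB7 fell. A gene is said to have risen or fallen where limma's adjusted p over all 18404 genes was under 0.05, and each change is given as a log2 difference ± its standard error (SE), with n = 2 arrays in every group. In DMSO, 17 of 35 members rose, 12 integrin and 5 laminin genes, which is 48.6%, against 14.4% of all genes. Another 4 members fell (11.4%), against 18.8% of all genes. At 2-fold or more, 5 members rose (14.3%, against 1.86% of all genes) and 1 fell (2.86%, against 1.66%). The median change was 0.18 over the members and 0.02 over all genes. Under PLX4032, 19 of 35 members were higher in knockdown than in scrambled cells, 12 integrin and 7 laminin genes (54.3%), against 13.5% of all genes. Lower were 4 members (11.4%), against 15.0% of all genes. At 2-fold or more, 7 rose (20.0%, against 2.41%) and 1 fell (2.86%, against 1.76%). The median change was 0.33 over the members and 0.02 over all genes. Both comparisons are of separate arrays and share no control.

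**Figure D1:**
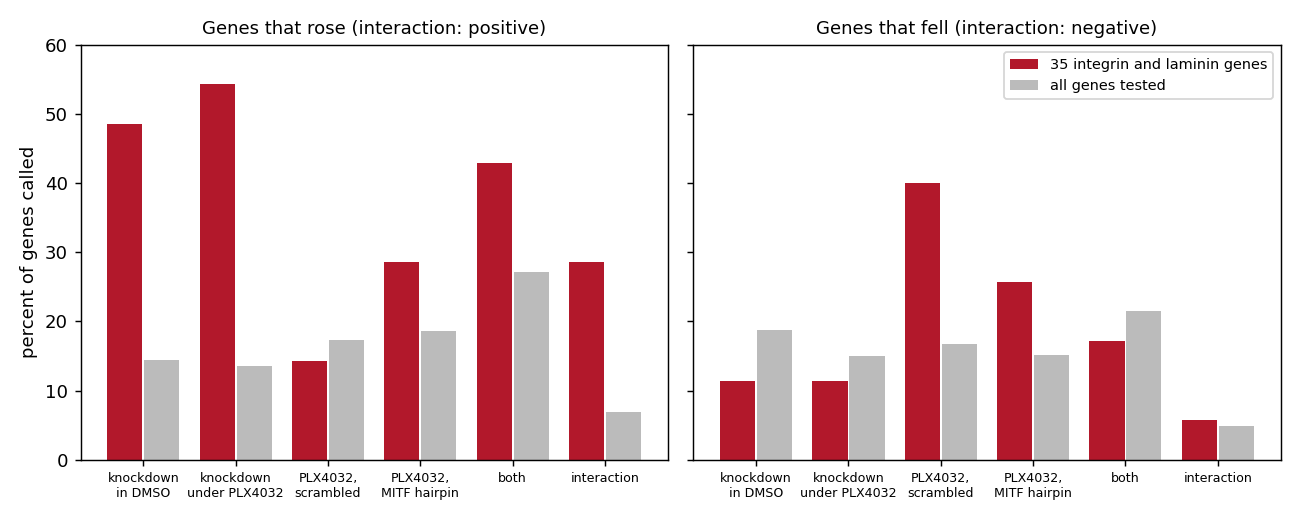
Percent of genes called as rising and as falling (adjusted p under 0.05) in each comparison, among the 35 integrin and laminin genes and among all 18404 genes. The share of members that rose on knockdown was 48.6% in DMSO and 54.3% under PLX4032, against 14.4% and 13.5% of all genes.

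Under PLX4032 alone more members fell than rose. In scrambled cells, 14 of 35 members fell under the inhibitor, against 16.8% of all genes, and 5 rose (14.3%), against 17.3% of all genes. At 2-fold or more, 4 fell (11.4%, against 2.86% of all genes), namely ITGA3, ITGA10, ITGB3 and ITGB8, and 0 rose, against 1.86% of all genes. The median change was -0.09 over the members and 0.05 over all genes. In knockdown cells, 9 members fell (25.7%), against 15.1% of all genes, and 10 rose (28.6%), against 18.6%. There, 3 fell by 2-fold or more (8.57%, against 2.84%), namely ITGA3, ITGA10 and ITGA9, and 1 rose by as much, ITGA2 (2.86%, against 2.77%). The median was 0.05 over the members and 0.04 over all genes. In scrambled cells the count of 5 members that rose dropped to 3 without scrambled DMSO array A, and to 3 after removing the dimmest 40% of genes.

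With both perturbations, knockdown PLX4032 cells against scrambled DMSO cells, 15 members rose (42.9%), against 27.1% of all genes, and 6 fell (17.1%), against 21.5%. At 2-fold or more, 5 rose (14.3%, against 3.65%), namely ITGA2, ITGA10, LAMA4, LAMB1 and LAMB2, and LAMA1 fell (2.86%, against 5.17%). The median was 0.21 over the members and 0.08 over all genes. Apart from the pair of knockdown comparisons and the pair of PLX4032 comparisons, the comparisons share arrays with one another.

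The collagen-binding alpha chains, which pair with ITGB1, held the largest changes among the members. ITGA10, a collagen receptor best known from cartilage cells, had the highest fold change of any member. ITGA10 read 8.74 and 8.78 in knockdown PLX4032 cells, 10.40 and 10.31 in knockdown DMSO cells, 4.62 and 4.81 in scrambled PLX4032 cells, and 7.26 and 7.40 in scrambled DMSO cells. Both knockdown groups were above both scrambled groups, PLX4032 cells were below DMSO cells of the same hairpin, and no 2 groups overlapped. The scrambled PLX4032 arrays lay below 5.095, the olfactory receptor level, so folds against that group are given as bounds, with the group set at that level. ITGA10 was 8.15-fold higher in knockdown than in scrambled cells in DMSO (log2 change 3.03 ± 0.0935, limma adjusted p = 9.43e-09). With the inhibitor present, it was at least 12.7-fold higher in knockdown cells (difference of the log2 readings 4.05 ± 0.0935, limma adjusted p = 1.01e-09). PLX4032 lowered the reading 3.02-fold in knockdown cells (-1.59 ± 0.0935, log2) and at least 4.7-fold in scrambled cells (difference of the readings -2.61 ± 0.0935), and the ITGA10 level with both perturbations stayed 2.7-fold above scrambled DMSO cells.

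ITGA2, the collagen receptor chain of platelets and many epithelia, behaved unlike ITGA10. ITGA2 read 10.88 and 10.91 in knockdown PLX4032 cells, 8.43 and 8.42 in knockdown DMSO cells, 7.78 and 7.88 in scrambled PLX4032 cells, and 8.21 and 8.29 in scrambled DMSO cells. The knockdown PLX4032 arrays were far above the other 6, which lay between 7.78 and 8.43. In DMSO the knockdown difference was small and missed the threshold (log2 change 0.18 ± 0.0808, limma adjusted p = 0.118). In inhibitor-treated cells the ITGA2 difference was 8.35-fold (log2 change 3.06 ± 0.0808, limma adjusted p = 1.81e-09). The inhibitor went with a 5.53-fold rise in knockdown cells and a 1.34-fold fall in scrambled cells, and ITGA2 was 6.25-fold higher with both perturbations than with neither. By start position on chromosome 5, the coding gene before ITGA2 is PELO, and the one before PELO is ITGA1.

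ITGA11, a receptor for fibrillar collagen in fibroblasts, changed by similar amounts in either background. ITGA11 read 6.47 and 6.53 in knockdown PLX4032 cells, 7.41 and 7.33 in knockdown DMSO cells, 5.51 and 5.63 in scrambled PLX4032 cells, and 6.40 and 6.27 in scrambled DMSO cells. No groups overlapped, and both knockdown groups were above both scrambled groups. Knockdown cells were 2.05-fold higher in DMSO (log2 change 1.03 ± 0.0872, limma adjusted p = 7.23e-06) and 1.91-fold higher under PLX4032 (log2 change 0.93 ± 0.0872, limma adjusted p = 1.22e-05). PLX4032 cells were lower by -0.87 with the MITF hairpin and -0.77 with the scrambled hairpin (log2 changes). The difference between those 2 ITGA11 responses was -0.10, adjusted p = 0.692, with a 95% interval of -0.37 to 0.17.

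**Figure D2:**
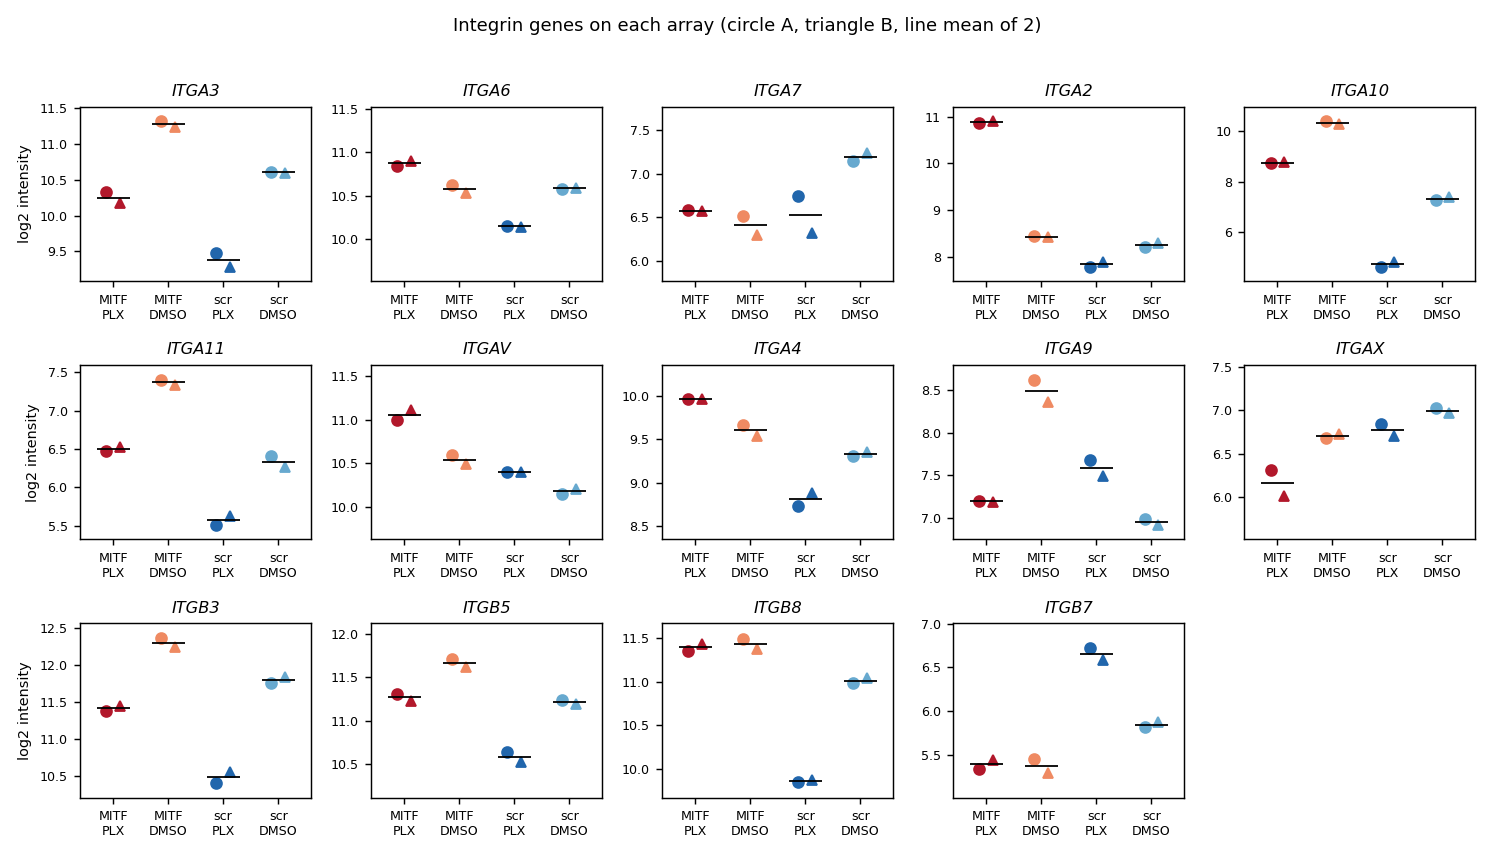
Log2 intensity of integrin genes on each of the 8 arrays (circle A, triangle B, line the mean of 2), with the MITF-hairpin groups left of the scrambled groups; each panel has its own axis range. ITGA2 is high in knockdown PLX4032 cells alone, at 10.88 and 10.91, and ITGA10 is lowest in scrambled PLX4032 cells, at 4.62 and 4.81.

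Promoters are shown for members with the largest called rise or the largest called fall in any of the 4 comparisons of 1 factor. LAMA1, with the largest fall on knockdown in DMSO, met that rule but had no promoter entry. Each stretch runs from 250 bases before the start site to 50 after it. These stretches were searched on both strands for elements bound by MITF (CACGTG or else CATGTG), by AP-1 (TGANTCA) and by TEAD factors (GGAATG). They are RefSeq sequences of GRCh38.p14, written in the direction of the gene, at chr1:145910001-145910300 (minus strand) for ITGA10, chr5:52989102-52989401 (plus strand) for ITGA2 and chr12:53207202-53207501 (minus strand) for ITGB7. Capitals mark a match, and the matches do not overlap one another.
ITGA10: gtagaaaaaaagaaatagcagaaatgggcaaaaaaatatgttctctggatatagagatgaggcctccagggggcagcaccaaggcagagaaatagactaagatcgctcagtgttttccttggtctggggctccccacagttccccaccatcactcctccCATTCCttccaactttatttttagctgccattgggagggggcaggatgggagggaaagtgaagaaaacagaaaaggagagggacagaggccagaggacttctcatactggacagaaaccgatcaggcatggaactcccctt
ITGA2: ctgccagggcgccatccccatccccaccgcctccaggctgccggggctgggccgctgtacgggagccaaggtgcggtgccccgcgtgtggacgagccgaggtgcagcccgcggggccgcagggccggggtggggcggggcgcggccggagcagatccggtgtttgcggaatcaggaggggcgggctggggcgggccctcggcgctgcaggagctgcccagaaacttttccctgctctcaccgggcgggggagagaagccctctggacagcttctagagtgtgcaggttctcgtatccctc
ITGB7: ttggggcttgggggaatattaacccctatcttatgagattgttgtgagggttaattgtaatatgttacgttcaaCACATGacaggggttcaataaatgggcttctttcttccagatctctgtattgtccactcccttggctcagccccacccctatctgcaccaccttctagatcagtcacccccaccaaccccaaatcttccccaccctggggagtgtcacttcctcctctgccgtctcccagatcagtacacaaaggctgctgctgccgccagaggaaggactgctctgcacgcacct
The ITGA10 window holds GGAATG on the opposite strand, 91 bases before the start site. In the ITGB7 window CATGTG lies on the opposite strand, 176 bases before the start. None of the searched letters is in the ITGA2 window. Of the members, 24 of 35 matched an entry in the promoter table. A member was counted if any of its entries held the letters, while the share over all promoters counts each entry by itself. CACGTG was in 1 of these 24 members (ITGA6, 4.17%), against 7.26% of all 35116 promoters of that length. CATGTG was in 3 (ITGAE, ITGB7 and LAMB4, 12.5%), against 11.1%. TGANTCA was in 2 (ITGA5 and LAMB3, 8.33%), against 7.71%. GGAATG was in 4 (ITGA10, ITGA5, ITGB1 and LAMA2, 16.7%), against 14% of all promoters. A match describes the letters in the window and does not show binding.

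The laminin-binding alpha chains did not move as a block. All 3 fell under PLX4032 in scrambled cells, while on knockdown ITGA3 rose in either treatment, ITGA6 rose under PLX4032, and ITGA7 fell in DMSO. ITGA3, a receptor chain for the laminins of skin and kidney, pairs with ITGB1. ITGA3 read 10.33 and 10.17 in knockdown PLX4032 cells, 11.32 and 11.24 in knockdown DMSO cells, 9.47 and 9.29 in scrambled PLX4032 cells, and 10.62 and 10.60 in scrambled DMSO cells. The 4 groups did not overlap, with knockdown DMSO highest and scrambled PLX4032 lowest. ITGA3 was 1.6-fold higher in knockdown than in scrambled cells in DMSO (log2 change 0.67 ± 0.0931, limma adjusted p = 2.54e-04) and 1.83-fold higher under PLX4032 (log2 change 0.87 ± 0.0931, limma adjusted p = 3.47e-05). PLX4032 went with a 2.04-fold fall in knockdown cells and a 2.34-fold fall in scrambled cells. With both perturbations ITGA3 was lower than in scrambled DMSO cells (log2 change -0.36 ± 0.0931, limma adjusted p = 0.00855), a call that was lost without knockdown PLX4032 array B.

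ITGA6, which pairs with ITGB1 or ITGB4, rose on knockdown under PLX4032 and was not called in DMSO. ITGA6 read 10.84 and 10.90 in knockdown PLX4032 cells, 10.63 and 10.53 in knockdown DMSO cells, 10.16 and 10.14 in scrambled PLX4032 cells, and 10.58 and 10.59 in scrambled DMSO cells. In DMSO the scrambled arrays lay inside the range of the knockdown arrays, and under PLX4032 the knockdown arrays were clearly higher. The knockdown difference was -0.01 ± 0.0796 in DMSO (95% interval -0.19 to 0.17, limma adjusted p = 0.93) and 0.72 ± 0.0796 under PLX4032 (adjusted p = 4.50e-05). PLX4032 went with a rise of 0.29 in knockdown cells and a fall (-0.44) in scrambled cells; the rise lost its call without array B of either knockdown group.

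ITGA7, the laminin receptor chain of muscle, was lower in all 3 perturbed groups than in scrambled DMSO cells. ITGA7 read 6.58 and 6.56 in knockdown PLX4032 cells, 6.51 and 6.30 in knockdown DMSO cells, 6.74 and 6.31 in scrambled PLX4032 cells, and 7.14 and 7.23 in scrambled DMSO cells. Scrambled PLX4032 arrays overlapped each knockdown group, the knockdown groups did not overlap each other, and all 6 arrays lay below both scrambled DMSO arrays. The fall was 1.53-fold with both perturbations, 1.72-fold on knockdown in DMSO (log2 change -0.78 ± 0.13, limma adjusted p = 9.34e-04) and 1.58-fold with PLX4032 in scrambled cells. Under PLX4032 the knockdown difference was 0.05 ± 0.13 (adjusted p = 0.827). ITGB1, the beta chain that most of these alpha chains need, stayed between 10.38 and 10.83 on the 8 arrays and rose only on knockdown under PLX4032 (log2 change 0.33 ± 0.0903, limma adjusted p = 0.0184), a call that was lost without array B of either PLX4032 group. ITGB4, the hemidesmosome chain that pairs with ITGA6, read 5.05 to 5.37 and rose on knockdown in DMSO (log2 change 0.26 ± 0.0844, limma adjusted p = 0.0382), a call that was lost when any 1 of the 4 DMSO arrays was left out, under repeated quantile normalization (0.14) and with a trended, robust prior.

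Among integrins that bind the RGD motif of fibronectin, vitronectin and latent TGF-beta, the beta chains ITGB3, ITGB5 and ITGB8 and the alpha chain ITGAV all rose on knockdown in either treatment. The 3 beta chains fell under PLX4032 in scrambled cells. ITGB3, the beta chain of the vitronectin receptor, pairs with ITGAV. ITGB3 read 11.38 and 11.45 in knockdown PLX4032 cells, 12.36 and 12.23 in knockdown DMSO cells, 10.41 and 10.56 in scrambled PLX4032 cells, and 11.76 and 11.83 in scrambled DMSO cells. The 4 groups did not overlap, and knockdown DMSO cells were highest. ITGB3 was 1.41-fold higher on knockdown in DMSO (log2 change 0.50 ± 0.0898, limma adjusted p = 0.00157) and 1.9-fold higher under PLX4032 (log2 change 0.93 ± 0.0898, limma adjusted p = 1.59e-05). PLX4032 cells were 1.84-fold lower with the MITF hairpin and 2.48-fold lower with the scrambled hairpin. The difference between the 2 ITGB3 responses was 0.43 ± 0.127, which did not pass the threshold (adjusted p = 0.0526, 95% interval 0.15 to 0.71).

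ITGB8, whose pairing with ITGAV releases active TGF-beta from its latent form, was low in scrambled PLX4032 cells. ITGB8 read 11.35 and 11.44 in knockdown PLX4032 cells, 11.49 and 11.38 in knockdown DMSO cells, 9.85 and 9.88 in scrambled PLX4032 cells, and 10.98 and 11.04 in scrambled DMSO cells. The knockdown groups overlapped each other and were above both scrambled groups. The knockdown difference was 1.34-fold in DMSO (log2 change 0.42 ± 0.0822, limma adjusted p = 0.00249) and 2.89-fold under PLX4032 (log2 change 1.53 ± 0.0822, limma adjusted p = 1.72e-07). PLX4032 changed ITGB8 by -0.04 ± 0.0822 in knockdown cells (adjusted p = 0.78, 95% interval -0.22 to 0.14), against a fall of 2.22-fold in scrambled cells.

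ITGB5, another vitronectin-binding beta chain, followed ITGB3 at a smaller size. ITGB5 read 11.31 and 11.22 in knockdown PLX4032 cells, 11.70 and 11.62 in knockdown DMSO cells, 10.65 and 10.53 in scrambled PLX4032 cells, and 11.23 and 11.19 in scrambled DMSO cells. Knockdown DMSO arrays were highest, scrambled PLX4032 arrays lowest, and the remaining 2 groups overlapped. It rose on knockdown by 0.45 in DMSO and 0.68 under PLX4032, and fell with PLX4032 by 0.40 in knockdown cells and 0.62 in scrambled cells (log2 changes of ITGB5, SE 0.0845, limma adjusted p 0.00349 or less).

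ITGAV, the alpha chain shared by these beta chains, rose with the inhibitor in knockdown cells. ITGAV read 11.00 and 11.11 in knockdown PLX4032 cells, 10.59 and 10.49 in knockdown DMSO cells, 10.40 and 10.40 in scrambled PLX4032 cells, and 10.14 and 10.21 in scrambled DMSO cells. Without overlap, their order was knockdown PLX4032, knockdown DMSO, scrambled PLX4032 and scrambled DMSO, from high to low. ITGAV rose 1.83-fold with both perturbations (log2 change 0.88 ± 0.0829, limma adjusted p = 6.24e-06) and by 0.65 on knockdown under PLX4032. On knockdown in DMSO it rose by 0.37 (log2 change 0.37 ± 0.0829, limma adjusted p = 0.00624), a call that was lost without knockdown DMSO array A. PLX4032 raised the ITGAV reading by 0.51 in knockdown cells, and the change of 0.23 in scrambled cells missed the threshold (adjusted p = 0.0575). ITGA5, the fibronectin receptor chain that pairs with ITGB1, read 9.54 to 10.39 on the 8 arrays. It rose on knockdown in DMSO (log2 change 0.50 ± 0.0808, limma adjusted p = 7.81e-04) and fell with PLX4032 in knockdown cells (-0.50). Smaller ITGA5 changes, 0.27 on knockdown under PLX4032 and -0.28 with PLX4032 in scrambled cells, lost their calls without scrambled PLX4032 array B. The first was also lost without either knockdown PLX4032 array, and the other without either scrambled DMSO array. ITGA8 (3.44 to 3.68), ITGA2B, the platelet fibrinogen receptor chain (4.52 to 4.91), and ITGB6, a beta chain of epithelia (3.88 to 4.53), stayed below the olfactory receptor level. ITGA2B rose in 3 comparisons by 0.27 to 0.32, and ITGB6 rose with PLX4032 in knockdown cells by 0.34. The 3 ITGA2B calls were lost without scrambled DMSO array A and under repeated quantile normalization (0.14 to 0.20). The ITGB6 call was lost under that normalization (0.29), with arrays centred on their medians (0.30), and without knockdown DMSO array B or either knockdown PLX4032 array.

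ITGA4 and ITGA9, related alpha chains that bind VCAM1 and, for ITGA9, tenascin, changed in opposite directions with PLX4032 under each hairpin. ITGA9 read 7.21 and 7.19 in knockdown PLX4032 cells, 8.62 and 8.36 in knockdown DMSO cells, 7.68 and 7.49 in scrambled PLX4032 cells, and 6.99 and 6.92 in scrambled DMSO cells. Knockdown DMSO arrays were highest and scrambled DMSO arrays lowest, and no groups overlapped. In DMSO, ITGA9 was 2.89-fold higher in knockdown than in scrambled cells (log2 change 1.53 ± 0.103, limma adjusted p = 1.48e-06), and under PLX4032 it was 1.31-fold lower (log2 change -0.39 ± 0.103, limma adjusted p = 0.0148). The call under PLX4032 was lost without knockdown PLX4032 array B and without scrambled PLX4032 array A. PLX4032 went with a 2.45-fold fall in knockdown cells and a 1.55-fold rise in scrambled cells.

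ITGA4 read 9.96 and 9.97 in knockdown PLX4032 cells, 9.66 and 9.54 in knockdown DMSO cells, 8.73 and 8.89 in scrambled PLX4032 cells, and 9.31 and 9.36 in scrambled DMSO cells. Both knockdown groups were above both scrambled groups, with no overlap, and PLX4032 cells were highest with the MITF hairpin and lowest with the scrambled hairpin. The knockdown difference of ITGA4 was 0.27 ± 0.087 in DMSO (limma adjusted p = 0.0346), lost when any 1 of the 4 DMSO arrays was left out, and 1.16 ± 0.087 under PLX4032 (adjusted p = 2.27e-06). PLX4032 went with a rise of 0.36 in knockdown cells, lost without knockdown DMSO array B, and with a 1.44-fold fall in scrambled cells.

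The chains known from leukocytes were mostly dim. ITGB7 pairs with ITGA4 or ITGAE on lymphocytes, and its promoter window is printed above. ITGB7 read 5.33 and 5.44 in knockdown PLX4032 cells, 5.45 and 5.28 in knockdown DMSO cells, 6.72 and 6.58 in scrambled PLX4032 cells, and 5.81 and 5.87 in scrambled DMSO cells. The knockdown groups overlapped each other and were below both scrambled groups, and scrambled PLX4032 arrays were highest. ITGB7 was 2.41-fold lower in knockdown than in scrambled cells under PLX4032 (log2 change -1.27 ± 0.0929, limma adjusted p = 1.83e-06) and 1.39-fold lower in DMSO (log2 change -0.48 ± 0.0929, limma adjusted p = 0.0025). PLX4032 changed it by 0.02 ± 0.0929 in knockdown cells (95% interval -0.18 to 0.23) and went with a 1.75-fold rise in scrambled cells.

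ITGAX, which pairs with ITGB2 on myeloid cells, was lowest with both perturbations. ITGAX read 6.32 and 6.01 in knockdown PLX4032 cells, 6.68 and 6.73 in knockdown DMSO cells, 6.84 and 6.71 in scrambled PLX4032 cells, and 7.02 and 6.97 in scrambled DMSO cells. The knockdown PLX4032 arrays were below all others. It was 1.78-fold lower there than in scrambled DMSO cells (log2 change -0.83 ± 0.105, limma adjusted p = 5.99e-05) and 1.52-fold lower than in scrambled PLX4032 cells. Its neighbours on chromosome 16 are ITGAM and ITGAD. ITGAL (3.85 to 4.12), ITGAM (4.38 to 4.78), ITGAD (5.07 to 5.37) and ITGAE (5.02 to 5.27), all leukocyte alpha chains, were called in none of the 6 comparisons. ITGB2, the beta chain of ITGAL, ITGAM, ITGAD and ITGAX, read 4.88 to 5.54 and rose with both perturbations by 0.43 (adjusted p = 0.0111), a call that was lost without knockdown PLX4032 array B or scrambled DMSO array B, and under repeated quantile normalization (0.26).

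Of the 10 laminin genes, 5 rose and 2 fell on knockdown in DMSO, where 14.4% of all genes rose and 18.8% fell. Under PLX4032, 7 rose and 1 fell, where 13.5% of all genes rose and 15.0% fell. Those 7 include LAMB4, which stayed below the olfactory receptor level. They also include LAMA5, whose call was lost without knockdown PLX4032 array B or scrambled PLX4032 array A. The chains LAMA4, LAMB1, LAMB2, LAMB3 and LAMC1 rose in both treatments. LAMA4, an alpha chain of the laminins of vessel walls and muscle, had the largest laminin change on knockdown. LAMA4 read 11.50 and 11.46 in knockdown PLX4032 cells, 11.80 and 11.62 in knockdown DMSO cells, 9.81 and 9.81 in scrambled PLX4032 cells, and 10.07 and 10.22 in scrambled DMSO cells. Every knockdown array was above every scrambled array by more than 1. LAMA4 was 2.97-fold higher in knockdown than in scrambled cells in DMSO (log2 change 1.57 ± 0.0906, limma adjusted p = 4.70e-07) and 3.19-fold higher under PLX4032 (log2 change 1.67 ± 0.0906, limma adjusted p = 1.88e-07). PLX4032 changed it by -0.23 in knockdown cells (adjusted p = 0.0762) and -0.33 in scrambled cells (adjusted p = 0.0147); the scrambled call was lost without array A or B of scrambled PLX4032 or array B of scrambled DMSO. The difference between those LAMA4 responses was 0.10, with a 95% interval of -0.18 to 0.39.

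LAMB1 and LAMC1 are the beta and gamma chains found in most laminins. LAMB1 read 12.01 and 11.95 in knockdown PLX4032 cells, 11.54 and 11.44 in knockdown DMSO cells, 10.89 and 10.83 in scrambled PLX4032 cells, and 10.85 and 10.88 in scrambled DMSO cells. The scrambled groups overlapped, and both knockdown groups were above them. LAMB1 rose 1.54-fold on knockdown in DMSO (log2 change 0.62 ± 0.0813, limma adjusted p = 1.67e-04) and 2.17-fold under PLX4032 (log2 change 1.12 ± 0.0813, limma adjusted p = 1.70e-06). PLX4032 raised the LAMB1 reading by 0.49 in knockdown cells, while in scrambled cells the change was -0.01 ± 0.0813 (95% interval -0.19 to 0.17).

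LAMC1 read 12.05 and 12.07 in knockdown PLX4032 cells, 12.00 and 11.94 in knockdown DMSO cells, 11.19 and 11.19 in scrambled PLX4032 cells, and 11.32 and 11.24 in scrambled DMSO cells. All 4 knockdown arrays were above all 4 scrambled arrays. LAMC1 rose 1.61-fold on knockdown in DMSO (log2 change 0.69 ± 0.0786, limma adjusted p = 6.49e-05) and 1.83-fold under PLX4032 (log2 change 0.87 ± 0.0786, limma adjusted p = 9.08e-06). PLX4032 changed LAMC1 by 0.09 in knockdown cells and -0.09 in scrambled cells, and neither passed the threshold (95% intervals -0.08 to 0.27 and -0.27 to 0.08).

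LAMB2, the beta chain of synaptic and kidney basement membranes, rose with each perturbation. LAMB2 read 10.60 and 10.52 in knockdown PLX4032 cells, 10.17 and 10.11 in knockdown DMSO cells, 9.88 and 9.76 in scrambled PLX4032 cells, and 9.23 and 9.05 in scrambled DMSO cells. The groups did not overlap, and the order from high to low was knockdown PLX4032, knockdown DMSO, scrambled PLX4032 and scrambled DMSO. The LAMB2 rise was 2.67-fold with both perturbations (log2 change 1.42 ± 0.0925, limma adjusted p = 3.23e-07), 1.999-fold on knockdown in DMSO, which is just under the 2-fold mark, and 1.6-fold with PLX4032 in scrambled cells. On knockdown under PLX4032 it was 1.67-fold, and with PLX4032 in knockdown cells 1.34-fold.

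LAMB3, a chain of the laminin that anchors the epidermis, rose on knockdown and fell with the inhibitor. LAMB3 read 8.14 and 8.11 in knockdown PLX4032 cells, 8.98 and 8.88 in knockdown DMSO cells, 6.93 and 6.52 in scrambled PLX4032 cells, and 7.50 and 7.59 in scrambled DMSO cells. The groups did not overlap, with knockdown DMSO highest and scrambled PLX4032 lowest. Knockdown cells were 2.61-fold higher in DMSO (log2 change 1.38 ± 0.12, limma adjusted p = 8.83e-06) and 2.64-fold higher under PLX4032 (log2 change 1.40 ± 0.12, limma adjusted p = 6.37e-06). The PLX4032 change of LAMB3 was -0.81 in knockdown cells and -0.82 in scrambled cells, a difference of 0.02 with a 95% interval of -0.36 to 0.39.

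**Figure D3:**
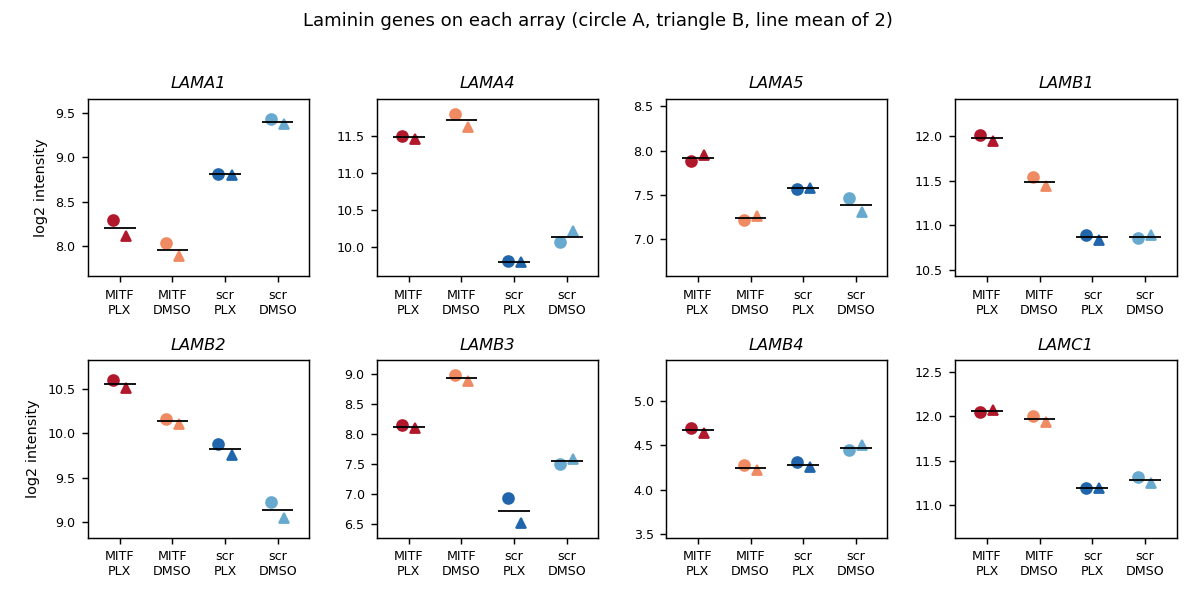
Log2 intensity of laminin genes on each of the 8 arrays (circle A, triangle B, line the mean of 2), with the MITF-hairpin groups left of the scrambled groups; each panel has its own axis range. For LAMA4, LAMB1, LAMB2, LAMB3 and LAMC1 all knockdown arrays are above all scrambled arrays, and for LAMA1 all are below.

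LAMA1, an alpha chain of embryonic basement membranes, fell on knockdown in either treatment. LAMA1 read 8.29 and 8.12 in knockdown PLX4032 cells, 8.03 and 7.89 in knockdown DMSO cells, 8.82 and 8.80 in scrambled PLX4032 cells, and 9.43 and 9.37 in scrambled DMSO cells. Scrambled DMSO arrays were highest, no groups overlapped, and all 4 knockdown arrays were below all 4 scrambled ones. LAMA1 was 2.72-fold lower in knockdown than in scrambled cells in DMSO (log2 change -1.44 ± 0.0914, limma adjusted p = 9.38e-07) and 1.52-fold lower under PLX4032 (log2 change -0.60 ± 0.0914, limma adjusted p = 4.70e-04). PLX4032 changed LAMA1 by 0.25 in knockdown cells (adjusted p = 0.0601) and went with a 1.51-fold fall in scrambled cells.

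LAMA5, the alpha chain of most adult epithelial basement membranes, was highest with both perturbations. LAMA5 read 7.88 and 7.94 in knockdown PLX4032 cells, 7.22 and 7.27 in knockdown DMSO cells, 7.56 and 7.58 in scrambled PLX4032 cells, and 7.46 and 7.30 in scrambled DMSO cells. The groups did not overlap, with knockdown PLX4032 highest and knockdown DMSO lowest. LAMA5 rose 1.59-fold with PLX4032 in knockdown cells (log2 change 0.67 ± 0.0846, limma adjusted p = 8.57e-05) and 1.45-fold with both perturbations. Its knockdown difference under PLX4032, 0.34, lost the call without knockdown PLX4032 array B or scrambled PLX4032 array A.

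The remaining laminin genes changed little or were dim. LAMB4, the neighbour of LAMB1 on chromosome 7, stayed below the olfactory receptor level. LAMB4 read 4.69 and 4.64 in knockdown PLX4032 cells, 4.27 and 4.22 in knockdown DMSO cells, 4.31 and 4.25 in scrambled PLX4032 cells, and 4.45 and 4.50 in scrambled DMSO cells. Knockdown PLX4032 arrays were highest, and knockdown DMSO and scrambled PLX4032 arrays overlapped. LAMB4 rose on knockdown under PLX4032 (log2 change 0.39 ± 0.0788, limma adjusted p = 0.0034) and fell in DMSO by 0.23 (limma adjusted p = 0.0462); the fall lost its call in 11 of 16 other settings, the replicate block among them. LAMA2, the alpha chain of muscle laminin, read 4.19 to 4.59 and rose with PLX4032 by 0.35 in knockdown cells and 0.32 in scrambled cells; the scrambled call was lost without scrambled DMSO array A. LAMC3 read 6.41 to 6.65 and was called in none of the 6 comparisons.

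**Figure D4:**
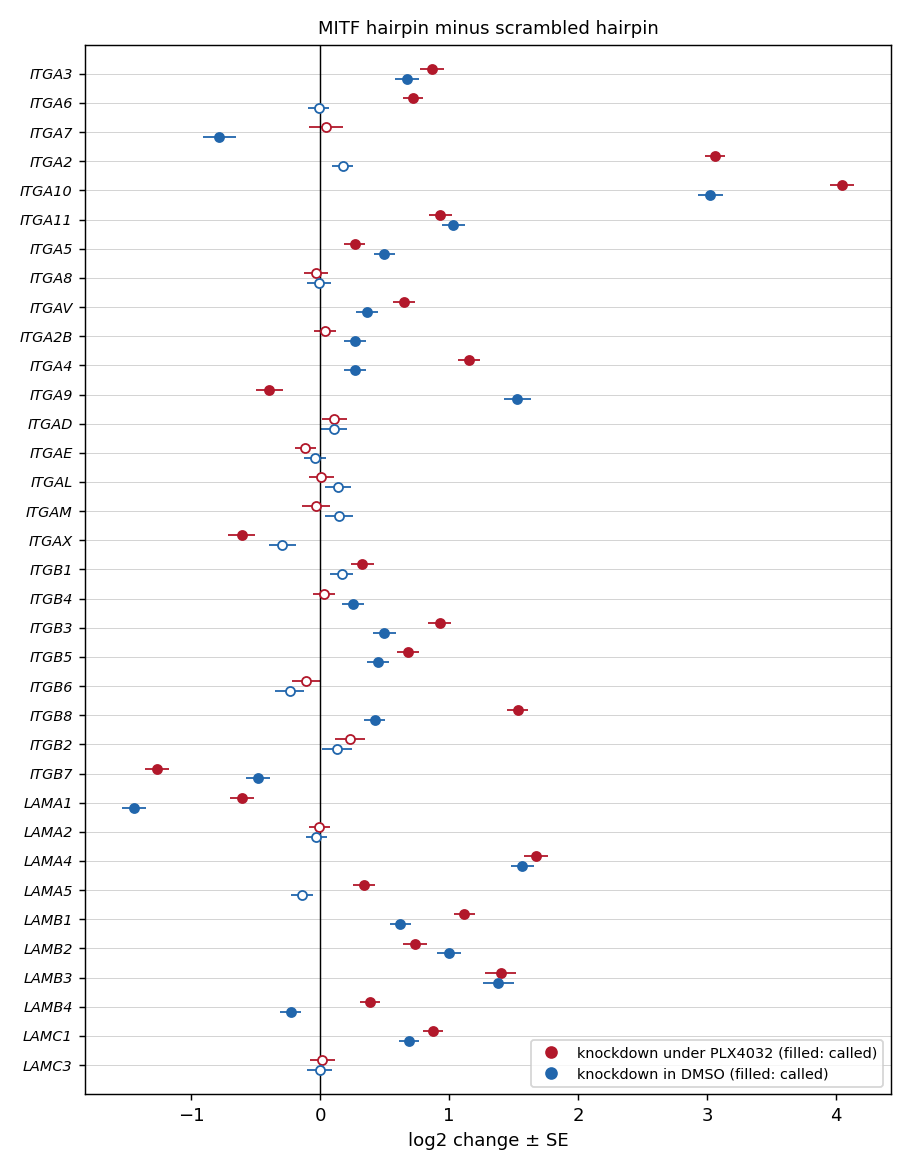
Log2 change (MITF hairpin minus scrambled hairpin, bars ± SE) of all 35 members under PLX4032 and in DMSO, filled where called. ITGA10 has the largest change in both, at 4.05 under PLX4032 and 3.03 in DMSO, and ITGA2 is at 3.06 under PLX4032 and 0.18 in DMSO.

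Whether the response to PLX4032 depends on the hairpin was asked with the interaction term, the PLX4032 change in knockdown cells minus that in scrambled cells. It was positive and called in 10 members (28.6%), against 6.97% of all genes, and negative and called in 2 (5.71%), against 4.85%. At 2-fold or more, 3 members were positive (8.57%, against 1.48%), ITGA2, ITGA10 and ITGB8, and ITGA9 was negative (2.86%, against 1.11%). The median was 0.10 over the members and 0.0013 over all genes. For ITGA2 the term was 2.89 ± 0.114 (limma adjusted p = 4.08e-07), from a PLX4032 rise in knockdown cells and a fall in scrambled cells. For ITGA9 it was -1.92 ± 0.146 (adjusted p = 1.51e-05), from a fall in knockdown cells and a rise in scrambled cells. ITGA4 (0.88) and ITGA6 (0.73) resembled ITGA2 in the direction of both changes, at a smaller size. ITGB8 (1.11) and LAMA1 (0.84) fell with PLX4032 in scrambled cells and passed no threshold in knockdown cells. ITGA10 fell with PLX4032 under either hairpin, by less in knockdown cells. Its term was 1.02 on the readings and at least 0.64 with the scrambled PLX4032 group set at the olfactory receptor level. ITGB7 (-0.79) rose with PLX4032 in scrambled cells and passed no threshold in knockdown cells. LAMB1 (0.50), LAMA5 (0.48) and LAMB4 (0.61) rose with PLX4032 in knockdown cells and passed no threshold in scrambled cells, and ITGA7 (0.83) fell in scrambled cells. The call was lost for ITGA7 without knockdown DMSO array B, for LAMB1 without knockdown DMSO array B or scrambled PLX4032 array B, and for LAMA5 without any array other than knockdown PLX4032 A and scrambled DMSO B.

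**Figure D5:**
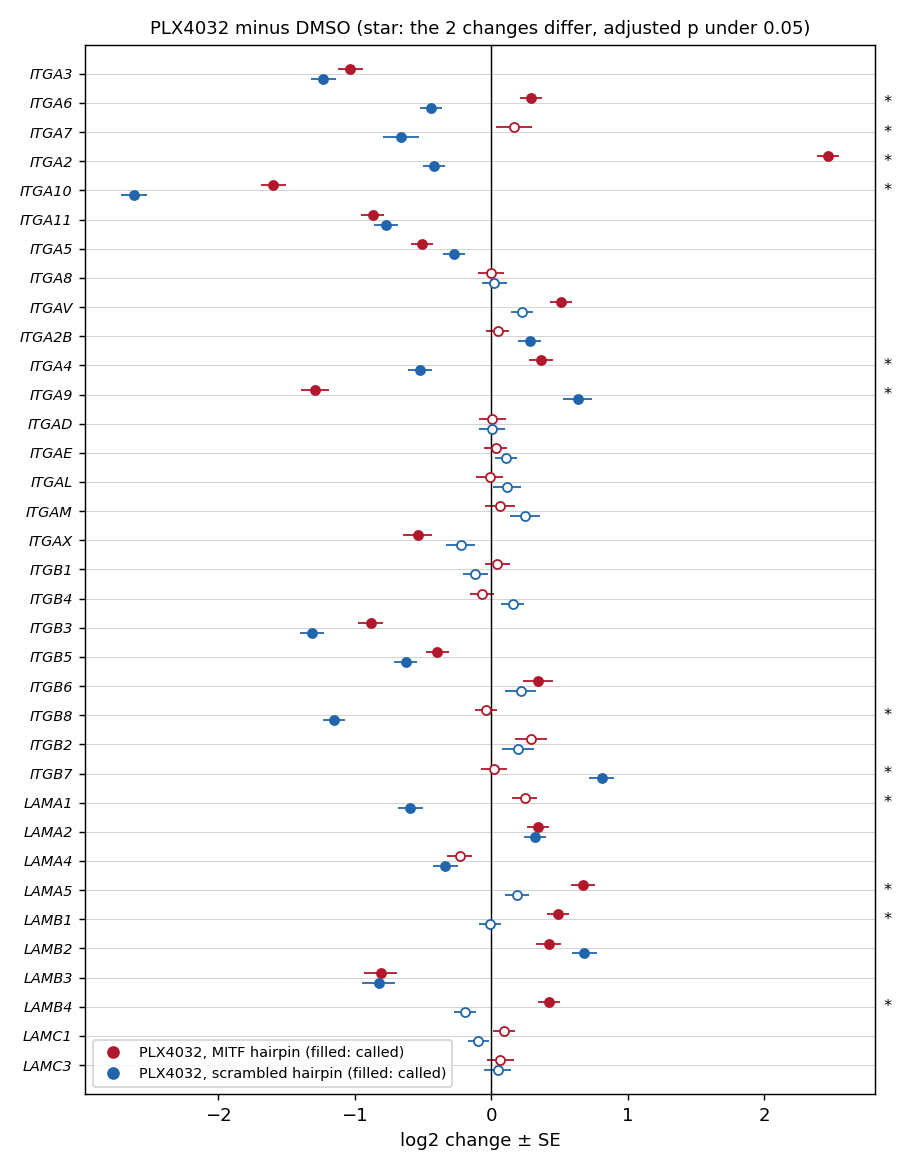
Log2 change (PLX4032 minus DMSO, bars ± SE) of all 35 members in knockdown and in scrambled cells, filled where called, with a star where the 2 changes differ by the interaction test. ITGA2 lies at 2.47 in knockdown cells and at -0.42 in scrambled cells, and ITGA9 at -1.29 and 0.63.

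In all 4 comparisons of 1 factor, 10 members were called: ITGA3, ITGA10, ITGA11, ITGA5, ITGA4, ITGA9, ITGB3, ITGB5, LAMB2 and LAMB3. Of the 35, 29 were called in at least 1 of the 6 comparisons. The 6 called in none were ITGA8, ITGAD, ITGAE, ITGAL, ITGAM and LAMC3, and 5 of them are among the 12 members in the dimmest 40% of genes. The shares of all genes called in all 4 or in at least 1 comparison were not counted, so these numbers do not set the members apart. With both perturbations alone, 27.1% of all genes rose and 21.5% fell.

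Genes of the same pathways were listed by function, and their counts stand beside the 14.4% of all genes that rose and 18.8% that fell on knockdown in DMSO, and 13.5% and 15.0% under PLX4032. Among 18 basement membrane partners of laminin, 10 rose and 0 fell on knockdown in DMSO (median 0.28, against 0.02 over all genes), 10 rose and 0 fell under PLX4032 (0.39, against 0.02), and 12 rose and 0 fell with both perturbations (0.36, against 0.08). The count in DMSO was 5 without knockdown DMSO array A, and 6 without knockdown DMSO array B or scrambled DMSO array B. COL4A1 encodes a main chain of the collagen network of basement membranes. COL4A1 read 8.77 and 8.65 in knockdown PLX4032 cells, 9.08 and 9.05 in knockdown DMSO cells, 6.64 and 6.59 in scrambled PLX4032 cells, and 7.56 and 7.51 in scrambled DMSO cells. Every knockdown array was above every scrambled array. COL4A1 rose by 1.53 on knockdown in DMSO and 2.10 under PLX4032, and fell with PLX4032 in scrambled cells (-0.92). Its partner chain COL4A2 rose by 0.98 and 1.29 in the same knockdown comparisons. FREM2, a protein that holds epidermis to dermis, rose by 1.52 in DMSO and 2.51 under PLX4032. HSPG2 (perlecan, 1.88) and NID1 (nidogen, which links laminin to collagen, 1.28) rose with both perturbations, and NTN4 rose with PLX4032 in knockdown cells (1.00). With PLX4032, 5 of these 18 rose and 1 fell in knockdown cells, where 18.6% of all genes rose and 15.1% fell. In scrambled cells 3 rose and 2 fell, where 17.3% of all genes rose and 16.8% fell, and 1 rose and 2 fell without scrambled PLX4032 array A.

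Of 9 measured laminin receptors other than integrins, 6 rose and 0 fell on knockdown in DMSO (median 0.41), and 7 rose and 0 fell under PLX4032 (median 0.79). MCAM, an adhesion receptor of melanoma and endothelium that binds LAMA4, was among them. MCAM read 11.27 and 11.31 in knockdown PLX4032 cells, 11.90 and 11.87 in knockdown DMSO cells, 9.25 and 9.26 in scrambled PLX4032 cells, and 10.53 and 10.58 in scrambled DMSO cells. The groups did not overlap, and both knockdown groups were above both scrambled ones. MCAM rose by 1.33 in DMSO and 2.03 under PLX4032, and fell with PLX4032 by 0.60 in knockdown cells and 1.29 in scrambled cells. The syndecan SDC2 rose by 1.17 on knockdown in DMSO, and the proteoglycan GPC1 rose by 0.73 in DMSO and 0.81 under PLX4032. SDC3 fell with PLX4032 in knockdown (-1.23) and scrambled cells (-2.06). With PLX4032, 4 of the 9 receptors rose and 2 fell under either hairpin. Of all genes, 18.6% rose and 15.1% fell in knockdown cells, and 17.3% rose and 16.8% fell in scrambled cells. The knockdown count became 1 rise and 2 falls without knockdown DMSO array A. The scrambled count became the same without scrambled PLX4032 array A. SGCB, of the dystroglycan complex, rose with PLX4032 in knockdown (0.72) and scrambled cells (0.40), and with both perturbations (1.13). With both, 6 of the 9 receptors rose and 1 fell, where 27.1% of all genes rose and 21.5% fell.

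Among 24 other integrin ligands, 9 rose and 3 fell on knockdown in DMSO (median 0.17), and 7 rose and 3 fell under PLX4032 (0.15). TNC, the tenascin that ITGA9 and ITGAV bind, had the largest change of these on knockdown. TNC read 11.28 and 11.27 in knockdown PLX4032 cells, 11.66 and 11.66 in knockdown DMSO cells, 8.29 and 8.14 in scrambled PLX4032 cells, and 9.73 and 9.73 in scrambled DMSO cells. All knockdown arrays were above all scrambled arrays, with no overlap. TNC rose by 1.93 in DMSO and 3.06 under PLX4032, and fell with PLX4032 in scrambled cells (-1.52). SPP1 (osteopontin) fell on knockdown in DMSO (-1.39). CCN2 rose on knockdown in DMSO (1.87) and fell with PLX4032 in knockdown cells (-2.39), with an interaction of -2.78. With PLX4032, 7 of the 24 ligands rose and 4 fell in knockdown cells, and 6 rose and 6 fell in scrambled cells. EDIL3, an RGD ligand of ITGAV integrins, rose with both perturbations (2.20), as did CCN1 (1.61) and vitronectin, VTN (1.57). In that comparison 9 of the 24 rose and 5 fell, where 27.1% of all genes rose and 21.5% fell. The median was 0.09 over the ligands and 0.08 over all genes, so the list as a whole did not shift.

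The cytoplasmic partners of integrins did not share that direction. Of 28 measured, 3 rose and 8 fell on knockdown in DMSO (median 0.0031), and 3 rose and 8 fell under PLX4032 (-0.06). FERMT1 read 4.22 and 4.31 in knockdown PLX4032 cells, 5.13 and 5.04 in knockdown DMSO cells, 4.66 and 4.50 in scrambled PLX4032 cells, and 6.44 and 6.81 in scrambled DMSO cells. FERMT1, a kindlin that activates integrins, was highest in scrambled DMSO cells, and the other 3 groups lay near or below the olfactory receptor level. With those groups set at that level, FERMT1 was at least 2.89-fold lower on knockdown in DMSO and, likewise, with PLX4032 in scrambled cells. ZYX (zyxin), of focal adhesions, rose on knockdown in DMSO (0.81), and ACTN1, an actin crosslinker, fell with PLX4032 in knockdown (-2.02) and scrambled cells (-1.04). TLN2, a talin, rose with PLX4032 in knockdown cells (1.42), and LPXN, a paxillin relative, fell on knockdown under PLX4032 (-1.55). TNS1 rose with PLX4032 in scrambled cells (1.77) and TNS3 with PLX4032 in knockdown cells (1.59). With PLX4032, 10 of the 28 partners rose and 8 fell in knockdown cells, where 18.6% of all genes rose and 15.1% fell. In scrambled cells 9 rose and 7 fell, where 17.3% of all genes rose and 16.8% fell.

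Of 9 measured tetraspanins and hemidesmosome linkers, 5 rose and 0 fell on knockdown in DMSO, which became 3 without knockdown DMSO array A or B or scrambled DMSO array A, and 5 rose and 1 fell under PLX4032. CD9, a tetraspanin that associates with ITGA3 and ITGA6 integrins, rose with PLX4032 in knockdown cells (1.53) and DST, which ties hemidesmosomes to keratin, rose on knockdown under PLX4032 (1.97). CD82 rose on knockdown in DMSO (0.88) and fell under PLX4032 (-0.56). With PLX4032 in knockdown cells, 2 of these 9 rose and 1 fell, where 18.6% of all genes rose and 15.1% fell. Of 9 genes of latent TGF-beta, 4 rose and 2 fell on knockdown in each treatment. LTBP3, which stores latent TGF-beta in matrix, rose by 1.16 in DMSO, and TGFB3 rose by 1.63 under PLX4032. TGFB2 fell on knockdown under PLX4032, to 4.47 and 4.58, below the olfactory receptor level, against 5.74 and 5.72 in scrambled cells.

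Markers of other cell types were read beside these results. Of 9 measured leukocyte markers, 7 were at or below the olfactory receptor level and 2 (CD14 and SPI1) were above it. Their summed intensity on the linear scale was 227 to 244 in knockdown PLX4032 and 235 to 239 in knockdown DMSO arrays. It was 207 to 217 in scrambled PLX4032 and 196 to 210 in scrambled DMSO arrays. Markers at or below that level read close to background, which these sums include. Of 6 endothelial markers, 4 were at or below that level. Their sums were 342 to 350, 381 to 393, 421 to 433 and 559 to 565 in the same order. Fibroblast markers, 2 of 7 at or below that level, summed to 1185 to 1230, 1144 to 1169, 1163 to 1200 and 955 to 1000. The part of these cell types in the ITGB7, ITGA11 and LAMA4 results was not tested. Of 6 epithelial and 5 platelet markers, 5 and 3 were at or below the level.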

How the data were processed

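Total RNA was labelled with biotin and hybridised to Affymetrix arrays, 1 per sample. Each deposited value is the log2 intensity of 1 probe set, made with RMA per the submitters' processing notes, with no version given; RMA sets the distributions of all arrays alike. The genome build is not given in the sources used here. Probe sets were named through the platform annotation: 19158 of 32321 carried 1 symbol, giving 18404 genes, each by the probe set with the highest mean over 8 arrays.

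All 8 arrays were fitted together with limma 3.58.1 (lmFit, eBayes) in R 4.3.3, with 1 mean per group, 4 residual degrees of freedom and Benjamini-Hochberg adjustment over all genes. The median SE was 0.0939, and 0.133 for the interaction. The 95% intervals are not adjusted for the number of genes. Precision is limited by the number of arrays. The script was tested on simulated data. Members and lists were chosen with earlier results of these data known. All 8 values are given for members called with at least a 1.5-fold change in any comparison or called in the interaction (22), the other 13 are given by range, and from each pathway list up to 3 genes with the largest called change per comparison may be named. Alternatives changed the probe set chosen, the filter on dim genes, the normalization, the variance model and the replicate block, or left out 1 array. Protein sequences planned for the beta chains were not used here. Promoters come from RefSeq (GRCh38.p14); the LAMA1 promoter is not printed.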

Additional observations from a re-analysis of the deposited data

Results flagged for a closer look

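For 12 members the response to PLX4032 differed between the hairpins by limma's interaction test over all genes, given as the log2 change in knockdown cells minus that in scrambled cells. The difference was 2.89 for ITGA2, 1.11 for ITGB8, 1.02 for ITGA10 (at least 0.64 with the dim scrambled PLX4032 group set at the olfactory receptor level), 0.88 for ITGA4, 0.73 for ITGA6 and 0.83 for ITGA7. Among the laminin genes it was 0.84 for LAMA1, 0.61 for LAMB4, 0.50 for LAMB1 and 0.48 for LAMA5. It was negative for ITGA9 (-1.92) and ITGB7 (-0.79).

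A signal also appeared in a probe set that carries both symbols PELO and ITGA1 and so entered no comparison above. ITGA1 encodes a collagen-binding alpha chain, and PELO acts in ribosome rescue. Ordered by start position on chromosome 5, PELO comes next after ITGA1 and is followed by ITGA2. That order does not show whether the genes overlap. The shared probe set read 9.80 and 10.12 in knockdown PLX4032 cells, 9.14 and 9.19 in knockdown DMSO cells, 8.12 and 8.18 in scrambled PLX4032 cells, and 8.06 and 8.14 in scrambled DMSO cells. All knockdown arrays were above all scrambled arrays. The knockdown difference was 1.06 ± 0.105 in DMSO (limma adjusted p = 2.37e-05) and 1.81 ± 0.105 under PLX4032 (adjusted p = 3.07e-07). PLX4032 changed it by 0.80 in knockdown cells (adjusted p = 0.000119) and by 0.05 in scrambled cells (adjusted p = 0.756). A probe set that names PELO alone read 3.19 to 3.43 and passed the threshold in none of the 6 comparisons. Which of the 2 genes gives the shared signal was not tested.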

How the results depend on the processing

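Of 115 called changes of members, 91 were called under every alternative run for them and 24 lost the call under at least 1. Of these 24, 15 lost it only when an array was left out. In 2029 recomputations 0 reversed, but some of them could not alter a log2 change. Each member had 1 probe set, so its mean and its most variable probe set were the same values. The replicate block, and leaving out an array of a group not compared, also kept the log2 change as it was. The number of members called was 21 on knockdown in DMSO (16 to 21 with 1 array left out, 18 to 22 otherwise), 23 on knockdown under PLX4032 (19 to 23, 21 to 24), 19 with PLX4032 in knockdown cells (16 to 19, 17 to 21), 19 with PLX4032 in scrambled cells (16 to 19, 17 to 20), 21 with both perturbations (18 to 21, 19 to 22) and 12 in the interaction (9 to 12, 11 to 13). With the letter as a replicate block these counts were 21, 23, 20, 19, 22 and 12, and 1 member call, the fall of LAMB4 on knockdown in DMSO, was lost. Deviations of same-letter arrays correlated at 0.329 between knockdown PLX4032 and scrambled DMSO cells, the groups of the comparison with both perturbations. Between the other pairs of groups they correlated at -0.094 to -0.0065. Whether samples of 1 letter share more than the letter was not tested. When a group was left with 1 array, that array was assumed to vary like the other groups. The alternatives for the pathway lists were added after seeing the data. Repeated quantile normalization lost 7 of the 115 calls, those of ITGA2B (3), ITGB4, ITGB6, ITGB2 and LAMA2. The 7 members at or below the olfactory receptor level read close to background, which limits what their changes can show.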
